A study of Homo sapiens with 16 samples.

Results

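The transcription factor p53 binds DNA as a tetramer and switches on genes that halt the cell cycle, repair DNA, trigger cell death and limit p53 itself. It is kept low in unstressed cells, mainly because its target MDM2 marks it for degradation, and it accumulates when kinases of the DNA damage response modify both proteins. In blood cells it is known as the main brake on cells with damaged DNA, and its transcriptional output is usually read from the mRNA of its direct targets. Here 44 genes named as direct p53 targets, with the CDK inhibitors and the BCL2 family left apart, were followed through RNA sequencing (RNA-Seq) of MUTZ-3 cells. All 44 gene symbols were found among the 60623 genes of the count tables, and 42 had at least 10 reads in at least 3 of the 16 libraries, as did 18597 genes in all. The 2 that did not were PERP, a tetraspan protein of the p53 death response, with 0 to 7 reads per library, and SPATA18, a mitochondrial quality control protein, with 0 to 3 reads per library.

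MUTZ-3 is a human acute myeloid leukemia line with a 3q rearrangement that places EVI1 (gene symbol MECOM) under a distant enhancer, and it was cultured with GM-CSF and medium conditioned by the bladder carcinoma line 5637. In the time course, cells were harvested 12, 24 and 48 h after olaparib (10 µM), talazoparib (1 µM) or DMSO as vehicle was added, and untreated cells gave 1 library at 0 h. Both drugs block PARP enzymes, which sense DNA strand breaks. In the knockdown experiment, cells were transduced with lentiviral pLKO.1 vectors, selected with puromycin and harvested on day 3 and day 6. The vectors carried a non-targeting control (NTC) or 1 of 2 shRNAs against EVI1, shEVI1-2531 and shEVI1-2532. Every condition was 1 library, and all libraries came from 1 cell line. The spread behind each test of an inhibitor or shRNA is therefore how far its effect departed between time points or days, drawn toward a spread shared by all genes.

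Library totals ran from 55999673 to 72681943 reads in the time course and from 95523038 to 120716213 in the knockdown experiment, so that 3 reads correspond to 0.0413 to 0.0536 CPM and 0.0249 to 0.0314 CPM. CPM are counts brought to a common library size by trimmed mean of M values (TMM). They are not divided by gene length, so levels are set side by side between libraries and not between genes. EVI1 mRNA was 40.6 and 37.2 CPM with NTC, 13.2 and 17.5 with shEVI1-2531, and 5.14 and 4.31 with shEVI1-2532, so both shRNA labels matched their target and shEVI1-2532 left the least. All 7 markers of a myeloid leukemia cell (CD33, CD34, MPO, CSF2RA, CSF1R, SPI1, PTPRC) had at least 10 reads in every library, while the erythroid markers HBB and HBA1 summed to at most 0.184 CPM.

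The promoters of the targets were searched for the letters of the p53 response element. These genes were named as direct p53 targets, so a share of matches above that of all genes is not independent of their choice. RefSeq promoter windows (GRCh38.p14, 250 bases before to 50 after a start) were at hand for 33 of the 44 genes in 45 windows. The element, known as the p53 consensus, is a pair of 10-base elements, and it reads the same on both strands. A match was counted when both core C and G letters were kept, at most 2 other letters departed and at most 13 bases lay between the pair. It was found for 6 of the 33 genes (18.2%), against 3.62% of the 27305 genes with a window, and in 7 of the 45 windows against 2.93% of all 35116. The 6 stretches are shown because they are where the searched letters lie, and capitals mark the matched pair with its spacer. A match is a description of letters and not a measured binding site. MDM2 and FAS are printed with 40 bases on either side, DCP1B with the bases of its window around the match, and the others as the match alone because it falls in an exon of GENCODE v29.
MDM2, chr12:68808883-68808982, plus strand, in an intron, 94 and 101 bases before 2 RefSeq starts: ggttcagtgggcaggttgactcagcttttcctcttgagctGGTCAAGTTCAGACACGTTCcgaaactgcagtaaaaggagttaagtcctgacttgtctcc
FAS, chr10:88991269-88991368, plus strand, in an intron of the longest transcripts and 122 bases before a RefSeq start: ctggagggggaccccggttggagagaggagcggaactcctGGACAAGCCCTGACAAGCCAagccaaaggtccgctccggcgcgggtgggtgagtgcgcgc
DCP1B, chr12:2004610-2004707, minus strand, upstream of the gene, 212 bases before its start: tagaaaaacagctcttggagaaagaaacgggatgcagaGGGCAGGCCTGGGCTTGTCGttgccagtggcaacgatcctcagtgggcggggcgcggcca
DDB2, chr11:47214979-47214999, plus strand, in an exon: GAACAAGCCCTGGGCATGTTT
FDXR, chr17:74872996-74873025, minus strand, in an exon: GGGCGGGCCCGGGCAGGAGCGGGCTTGCCC
AEN, chr15:88621306-88621325, plus strand, in an exon: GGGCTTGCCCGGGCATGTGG
DDB2 was the 1 gene of the 6 with 0 departing letters, which 10 of all 35116 windows (0.0285%) had. MDM2, FAS and FDXR rose with the inhibitors as described next, while DDB2, AEN and DCP1B did not pass the test.

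PARP inhibition raised the mRNA of many p53 targets. In the mean effect of both drugs over DMSO, 24 of the 42 tested targets were higher and 0 were lower at an adjusted p under 0.05 (edgeR quasi-likelihood test with time point in the model, Benjamini-Hochberg adjustment over all genes). Of all 17218 genes tested 3.16% were called higher. Only 163 of them were called lower, so the 0 says little about the targets. All 42 fold changes were above 0, with a median log2 fold change of 0.71 against -0.00 over all genes tested. Of the 18 that were not called, 13 had an unadjusted p under 0.05, as did 35.1% of all genes tested, in either direction. The adjusted p-values of the 24 called genes lay between 0.0054 and 0.047, and the calls leaned on the time points. Without the 24 h libraries no gene of the whole table was called. In that fit 32 of the 42 targets kept an unadjusted p under 0.05, and the share of all genes that did was not counted. Without the time point in the model 2 targets were called. In bulk RNA a change in the share of cells of a kind and a change in RNA per cell cannot be told apart.

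**Figure D1:**
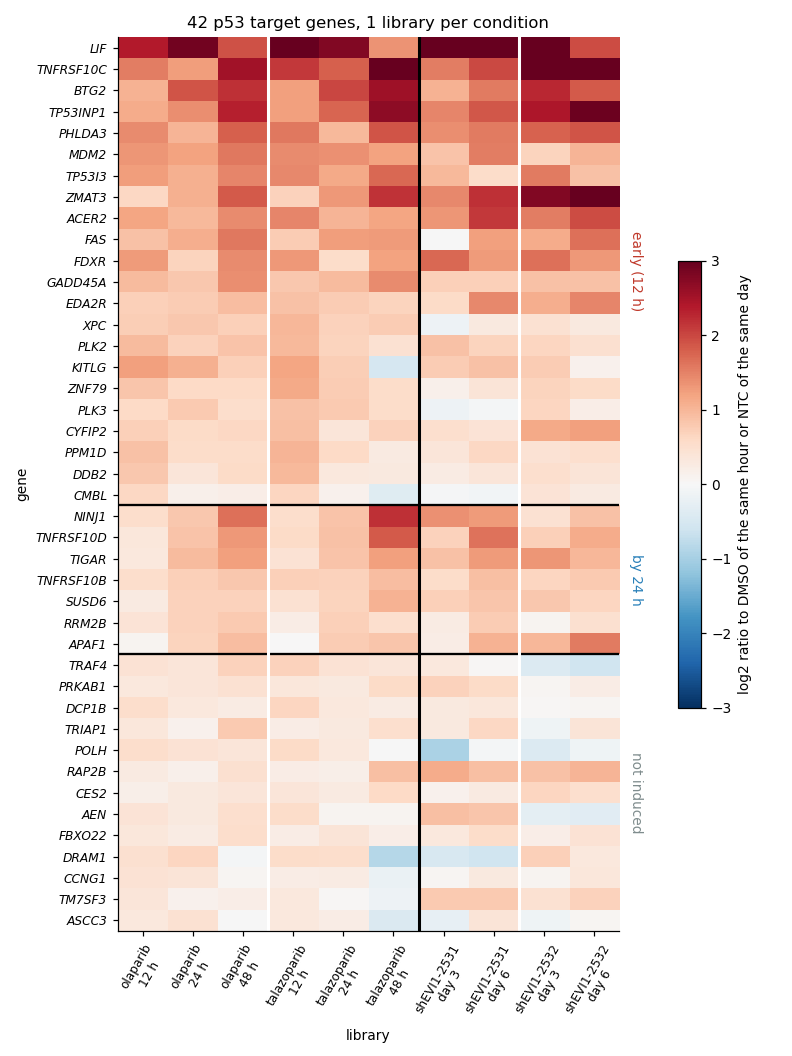
Heat map of log2 ratios for the 42 tested p53 targets (rows, by timing class and then by mean inhibitor effect) in 10 libraries (columns), each over DMSO of the same hour or NTC of the same day; color saturates at 3 on the log2 scale. Most cells are red (higher than control), with the darkest rows LIF, TNFRSF10C, BTG2 and TP53INP1 at the top and pale rows among the genes not induced.

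In single ratios, each over DMSO of the same hour, all 42 targets were higher with olaparib at 12 and 24 h and with talazoparib at 12 and 24 h. At 48 h 40 were higher with olaparib and 35 with talazoparib. The median log2 ratio stood at 0.61, 0.68 and 0.75 with olaparib and at 0.71, 0.69 and 0.68 with talazoparib at 12, 24 and 48 h. The ratios below DMSO were all at 48 h. For 28 targets all 6 inhibitor libraries lay above all 3 DMSO libraries, which held for 8.17% of all genes tested. Scaled to library totals, this held for 17 targets and 6.67% of all genes. Scaling to library totals alone, which lowers the median of all genes by 0.19 with olaparib and 0.27 with talazoparib at 48 h, left 39 and 32 targets higher at that time, and the medians of the targets became 0.59, 0.70 and 0.56 with olaparib and 0.70, 0.66 and 0.42 with talazoparib at 12, 24 and 48 h.

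Among the genes that feed back on p53, 3 of 5 were called higher. MDM2 (ENSG00000135679, chr12:68808177-68850686), the ubiquitin ligase that degrades p53, measured 172, 186 and 116 CPM with DMSO at 12, 24 and 48 h, 428, 428 and 346 with olaparib and 459, 481 and 267 with talazoparib. Every inhibitor library exceeded every DMSO library and the untreated library (108 CPM). The log2 fold change was 1.35 ± 0.12 (SE), with an adjusted p of 0.0054. TP53INP1, which promotes p53 phosphorylation and autophagy, went from 20.6, 26.8 and 24.0 CPM with DMSO to 44.8, 70.2 and 120.1 with olaparib and 48.4, 90.0 and 154 with talazoparib. Its libraries did not overlap and its lead over DMSO widened with time, for a mean log2 fold change of 1.72 ± 0.23 (SE), adjusted p = 0.016. PPM1D, the WIP1 phosphatase that switches off p53 and ATM, rose less (0.64 ± 0.13 (SE), adjusted p = 0.042). CCNG1, a cyclin that recruits a phosphatase to MDM2, and FBXO22, the substrate arm of a ubiquitin ligase, did not pass, at 0.18 and 0.32.

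Among the 9 targets in growth arrest and signaling, 7 were called higher. BTG2, an antiproliferative adaptor of mRNA deadenylation, was at 41.9, 29.6 and 29.3 CPM with DMSO at 12, 24 and 48 h, at 85.9, 109 and 134 with olaparib and at 98.5, 119 and 172 with talazoparib (1.79 ± 0.22 (SE), adjusted p = 0.013). All 6 inhibitor libraries stood above the 3 DMSO libraries, but the untreated library at 0 h held 105 CPM, within the inhibitor range. PHLDA3, a pleckstrin homology protein that keeps AKT off the membrane, changed from 21.7, 20.3 and 8.48 CPM to 58.1, 41.3 and 29.3 with olaparib and 64.5, 39.9 and 31.6 with talazoparib (1.43 ± 0.16 (SE), adjusted p = 0.012), without overlap. The RNA-binding protein ZMAT3 (1.251), the polo-like kinases PLK2 (0.77) and PLK3 (0.69), the zinc finger gene ZNF79 (0.75) and SUSD6 (0.63) rose as well, with adjusted p-values of 0.035, 0.022, 0.026, 0.032 and 0.04. PLK3 was highest in the untreated library, at 32.4 CPM against 13.1, 10.9 and 9.57 CPM with DMSO. The small GTPase RAP2B and the decapping factor DCP1B were not called, at 0.37 and 0.38.

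DNA repair targets were split, with 3 of 6 called higher. GADD45A, a stress sensor tied to repair and arrest, was at 14.9, 17.0 and 13.4 CPM with DMSO, 28.5, 29.8 and 35.03 with olaparib and 26.2, 33.0 and 35.8 with talazoparib (1.05 ± 0.13 (SE), adjusted p = 0.014). XPC, which recognizes helix distortions in nucleotide excision repair, was at 35.6, 27.8 and 22.7 CPM, 59.4, 48.3 and 37.0 and 71.4, 44.7 and 38.2 in the same order (0.78 ± 0.10 (SE), adjusted p = 0.014). In both genes the inhibitor libraries all exceeded the DMSO libraries, and GADD45A stayed highest at 48 h while XPC was highest at 12 h. RRM2B, the p53-inducible ribonucleotide reductase subunit, was the third called gene (0.55 ± 0.11 (SE), adjusted p = 0.043). DDB2, which binds ultraviolet lesions, just missed (0.55 ± 0.13 (SE), adjusted p = 0.052). The bypass polymerase POLH (0.37) and the helicase ASCC3 (0.14) were not called.

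Of the death receptor group 5 of 6 were called higher. TNFRSF10B, TNFRSF10C and TNFRSF10D lie side by side between positions 23020133 and 23164027 of chromosome 8. TNFRSF10B encodes the TRAIL receptor DR5, which signals death, and TNFRSF10C and TNFRSF10D encode decoy receptors that do not. TNFRSF10B stood at 85.5, 78.6 and 66.5 CPM with DMSO at 12, 24 and 48 h, 123, 129.7 and 116 with olaparib and 141, 127 and 126 with talazoparib (0.73 ± 0.10 (SE), adjusted p = 0.014). TNFRSF10C was scarce, with 24 to 50 reads per DMSO library and 67 to 228 per inhibitor library, or 0.353, 0.662 and 0.519 CPM with DMSO, 1.03, 1.58 and 3.00 with olaparib and 1.53, 2.31 and 4.76 with talazoparib (2.05 ± 0.27 (SE), adjusted p = 0.014). Neither gene overlapped between groups. The 3 neighbors are related in sequence, so reads could be shared between them. TNFRSF10D rose by 0.95 on the log2 scale (adjusted p = 0.047). FAS, the receptor of FAS ligand, was at 15.5, 19.2 and 19.7 CPM with DMSO, 28.4, 40.7 and 58.6 with olaparib and 26.4, 45.5 and 47.5 with talazoparib (1.13 ± 0.14 (SE), adjusted p = 0.014), again without overlap. The ectodysplasin receptor EDA2R was called too (0.79, adjusted p = 0.018). The adaptor TRAF4 missed the threshold (0.50, adjusted p = 0.051).

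Apoptosis and organelle turnover had the lowest share of calls among the 7 groups, 2 of 8 tested. TP53I3, a quinone oxidoreductase of the oxidative death response, had the smallest p-value of all 42 targets. It was at 18.6, 21.5 and 18.4 CPM with DMSO, 44.5, 44.7 and 50.9 with olaparib and 50.5, 47.5 and 60.3 with talazoparib (1.34 ± 0.12 (SE), adjusted p = 0.0054), and its lowest inhibitor library was well above its highest DMSO library. CYFIP2, a subunit of the actin-regulating WAVE complex, was the other (0.65, adjusted p = 0.032). The large but uneven change of NINJ1, a membrane rupture protein, did not pass (1.05 ± 0.25 (SE), adjusted p = 0.052), nor did the apoptosome scaffold APAF1 (0.54 ± 0.16 (SE), adjusted p = 0.065). The nuclease AEN, the lysosomal protein DRAM1, the apoptosome inhibitor TRIAP1 and TM7SF3 had log2 fold changes of 0.32, 0.21, 0.38 and 0.15.

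Among metabolic targets 3 of 6 were higher, and of the secreted ligands 1 of 2. ACER2, an alkaline ceramidase, was at 3.54, 3.96 and 2.24 CPM with DMSO, 8.04, 7.71 and 6.03 with olaparib and 9.74, 8.05 and 5.08 with talazoparib, with no overlap (1.20 ± 0.15 (SE), adjusted p = 0.013). FDXR, which passes electrons to mitochondrial cytochromes, rose by 1.06 (adjusted p = 0.019) and TIGAR, which lowers glycolytic flux, by 0.82 (adjusted p = 0.041). LIF, a cytokine of the interleukin-6 family, had the largest fold change of the 42 and rested on few reads. Its counts were 14, 11 and 7 with DMSO at 12, 24 and 48 h, 70, 77 and 22 with olaparib and 136, 59 and 13 with talazoparib, and the untreated library had 10 (2.54 ± 0.34 (SE), adjusted p = 0.016). The talazoparib library at 48 h was below the DMSO library at 12 h in reads but not in CPM. With 7 reads in the DMSO library at 48 h, LIF passed the filter of the time course only through inhibitor libraries. It is nonetheless in the counts of targets called higher, of early targets and of targets above all DMSO libraries. KITLG, the stem cell factor that binds KIT, was not called (0.75 ± 0.25 (SE), adjusted p = 0.079), and neither were CES2, CMBL and PRKAB1 (0.34, 0.22 and 0.39).

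To separate early from later targets, a gene was placed by the first time at which both drugs gave at least 1.5-fold its DMSO level, a description of single libraries with no test. At 12 h 22 of the 42 targets met this, where 4.81% of all genes tested did. The early targets were BTG2, PHLDA3, ZMAT3, PLK2, PLK3 and ZNF79 of the arrest group, MDM2, TP53INP1 and PPM1D of the feedback group, DDB2, GADD45A and XPC of DNA repair, FAS, EDA2R and TNFRSF10C of the death receptors, TP53I3 and CYFIP2, ACER2, FDXR and CMBL, and both ligands LIF and KITLG. A further 7 first met the rule at 24 h, where 8.18% of all genes tested did: RRM2B, APAF1, NINJ1, TNFRSF10B, TNFRSF10D, SUSD6 and TIGAR. The rule reads ratios, so a lower DMSO level also brings a gene past the line. From 12 to 24 h TNFRSF10B went from 85.5 to 78.6 CPM with DMSO, 123 to 129.7 with olaparib and 141 to 127 with talazoparib. TIGAR went from 9.53 to 7.42 CPM with DMSO, 11.9 to 14.3 with olaparib and 12.9 to 13.5 with talazoparib. None was first induced at 48 h, and 13 were not induced at any time, where 11% and 76.1% of all genes tested fell in these classes. At 24 h 24 targets and at 48 h 21 met the rule in both drugs, where 10.8% and 19.4% of all genes did. At any time 0 targets were 1.5-fold lower in both drugs. Of all 17218 genes tested 306, 718 and 2647 were, at 12, 24 and 48 h. Closest above the line at 12 h were PLK3 (1.52-fold in its weaker drug) and CMBL (1.53-fold), and closest below were TNFRSF10B (1.44-fold) and DCP1B (1.43-fold). With a threshold of 2-fold the early group held 10 targets, and with a lower fold threshold 32. Against the mean of the 3 DMSO libraries it held 28, of which 20 were among the 22, and the 24 h group held 4.

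**Figure D2:**
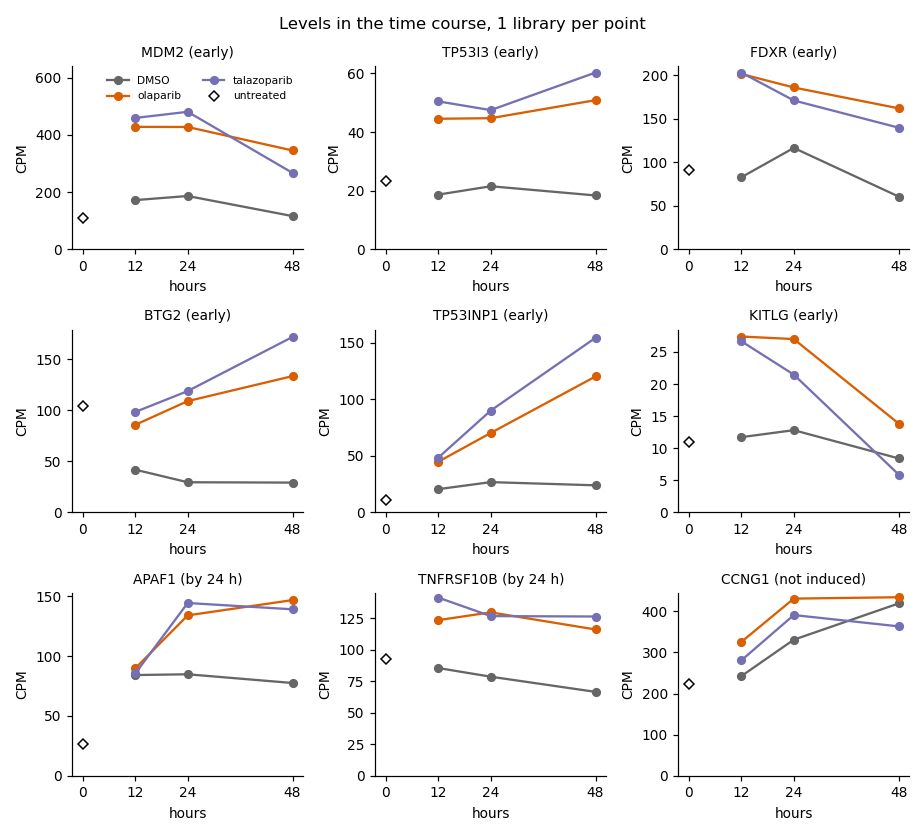
CPM (y axis, from 0) against hours (x axis) for 9 p53 targets, with DMSO in gray, olaparib in orange, talazoparib in purple and the untreated library as an open diamond, 1 library per point. MDM2, TP53I3 and FDXR were above DMSO at every time, BTG2 and TP53INP1 climbed with time, KITLG came back toward DMSO by 48 h, and APAF1 parted from DMSO only from 24 h.

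The early group moved by a median log2 ratio of 0.95, 0.88 and 1.40 with olaparib and 1.08, 0.86 and 1.19 with talazoparib at 12, 24 and 48 h. The 24 h group went from 0.34 to 0.72 and 0.92 with olaparib and from 0.45 to 0.77 and 1.05 with talazoparib. The 13 targets not induced had medians between 0.19 and 0.37 in the 6 libraries, with single genes from -0.86 to 0.90 with talazoparib at 48 h, where 8 of the 13 were above DMSO. These medians describe the classes and partly follow from the rule that set them. APAF1 showed the clearest delay, with 84.1, 84.8 and 77.5 CPM in the DMSO libraries, 89.7, 134 and 147 with olaparib and 85.4, 144 and 139 with talazoparib. At 12 h its ratios over DMSO were 1.07 and 1.02, and at 24 h 1.58 and 1.70.

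**Figure D3:**
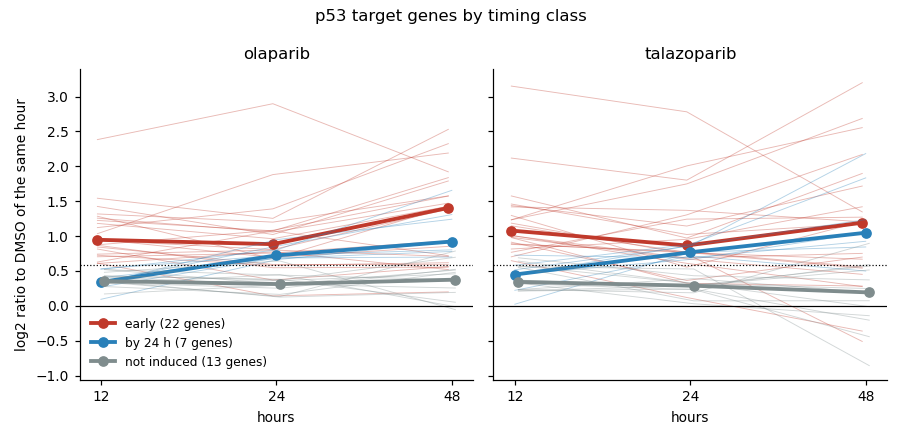
Log2 ratio to DMSO of the same hour (y axis) at 12, 24 and 48 h (x axis, evenly spaced) for olaparib and talazoparib, with thin lines for single genes, thick lines for the median of each timing class, and a dotted line at 1.5-fold. The early class starts high and the class induced by 24 h rises from 12 to 24 h by definition; the medians of the early class lie between 0.86 and 1.40 and those of the 24 h class at 0.92 and 1.05 at 48 h.

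A test of the change in the inhibitor effect per doubling of time called 7 targets with a growing effect and 3 with a shrinking one, where 9.98% and 9.83% of all genes were called in these directions. The growing ones were NINJ1 (0.70 ± 0.13 (SE), adjusted p = 5.1e-06), ZMAT3 (0.67), TP53INP1 (0.66), BTG2 (0.62), TNFRSF10D (0.55), TIGAR (0.43) and APAF1 (0.41), on the log2 scale per doubling. The shrinking ones were KITLG (-0.54 ± 0.14 (SE), adjusted p = 0.0012), DRAM1 (-0.49) and CMBL (-0.36). With 2 residual degrees of freedom in 9 libraries, this test took the same trended spread for all genes rather than a spread of each gene's own, so its small p-values rest on that shared spread. The share of targets called was near that of all genes. KITLG was the clearest case of fading, at 11.7, 12.8 and 8.42 CPM with DMSO, 27.4, 27.0 and 13.9 with olaparib and 26.7, 21.5 and 5.91 with talazoparib, with the talazoparib library at 48 h below its DMSO library. Scaled to library totals, the split was 5 growing and 4 shrinking.

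The DMSO level of many targets was itself not constant. Between 12 and 48 h in DMSO the median target fell by 0.39 on the log2 scale, 36 of 42 were lower at 48 h, and the highest DMSO library exceeded the lowest by a median of 0.46. From the untreated library to DMSO at 12 h 30 targets rose, with a median of 0.24. For 14 of the 42 the DMSO libraries differed by more than 1.5-fold, among them AEN (110.1, 83.0 and 43.8 CPM). The untreated library lay inside the inhibitor range for some of these genes: counting it with the DMSO libraries, 23 targets had all 6 inhibitor libraries on top, as did 4.81% of all genes tested.

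The drugs could not be separated on the p53 targets. Taken alone, olaparib at 10 µM raised 15 targets (0.639% of all genes tested were called higher) and talazoparib at 1 µM raised 22 (3.01%). All 15 olaparib calls were among the 22 of talazoparib, and the 7 called with talazoparib alone were CYFIP2, PLK3, SUSD6, TIGAR, TNFRSF10D, ZMAT3 and ZNF79. The direct test of talazoparib minus olaparib called 0 targets and 0% of all genes (DESeq2 called 0 targets too). An unadjusted p under 0.05 was met by 0 targets and by 353 genes, 2.05% of all tested. In this model a change with time that both drugs share counts as spread and can widen the error of their difference. The 0 calls therefore say little about the targets. Differences ran from -0.47 (KITLG) to 0.60 (TNFRSF10C), with 22 above and 20 below 0. For 31 of the 42 the 95% interval of the difference lay within 0.5 on the log2 scale and for 40 within 1. The doses differ, so the values stand side by side and the intervals bound the difference at these doses only.

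EVI1 knockdown, in separate cells with separate controls, also raised most p53 targets. With shEVI1-2532 28 targets were higher and 1 lower (21.2% and 19.9% of all 18606 genes tested), and with shEVI1-2531 26 were higher and 1 lower (9.49% and 7.9%). The median log2 fold change was 0.65 and 0.72, against -0.00 and 0.01 over all genes, and 38 of 42 were above 0 with each shRNA. For 25 targets all 4 knockdown libraries lay above both NTC libraries, which held for 14.8% of all genes. LIF is in each of these counts of higher targets, but it passed the filter only through shRNA libraries. Scaled to library totals, which lowered the median of all genes by 0.30 with shEVI1-2532 and 0.16 with shEVI1-2531, 19 and 21 targets were higher, 2 and 1 lower. The shares of all genes called under that scaling are not given here. Both shRNAs called many genes of the whole table in each direction, and the share of targets called lower was under the background with each.

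TNFRSF10C, ZMAT3 and TP53INP1 had the largest fold changes with shEVI1-2532. With shEVI1-2531 LIF had a larger one, on few reads, and ACER2 (1.73) lay between TNFRSF10C and TP53INP1. ZMAT3 measured 15.0 and 9.05 CPM with NTC on day 3 and day 6, 40.8 and 41.5 with shEVI1-2531 and 102 and 103 with shEVI1-2532. TP53INP1 was at 20.1 and 11.1 CPM, 55.3 and 40.1 and 107 and 85.4 in the same order, and TNFRSF10C at 0.483 and 0.447 CPM, 1.39 and 1.76 and 8.59 and 7.55. In all 3 genes the groups were ordered NTC, shEVI1-2531, shEVI1-2532 without overlap. Their log2 fold changes were 1.80 ± 0.19 (SE), 1.65 ± 0.16 (SE) and 1.76 ± 0.26 (SE) with shEVI1-2531 (adjusted p = 8.7e-05, 5.6e-05 and 0.00077). With shEVI1-2532 they were 3.12 ± 0.20 (SE), 2.67 ± 0.17 (SE) and 4.11 ± 0.27 (SE) (adjusted p = 6.1e-07, 5.1e-07 and 6.8e-07).

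PHLDA3 and FDXR rose with both shRNAs, and the shRNAs differed by 0.35 (adjusted p = 0.12) and -0.02 (adjusted p = 0.95). PHLDA3 was at 12.6 and 11.6 CPM with NTC, 33.0 and 33.9 with shEVI1-2531 and 42.9 and 42.5 with shEVI1-2532 (1.47 and 1.82, adjusted p = 0.0001 and 4.5e-06). FDXR was at 47.2 and 51.2 CPM, 155 and 124 and 148 and 127 (1.49 ± 0.14 (SE) and 1.48 ± 0.14 (SE), adjusted p = 5.6e-05 and 9.5e-06). In both genes every knockdown library exceeded the NTC libraries. MDM2 was at 87.2 and 42.2 CPM with NTC, 157 and 122 with shEVI1-2531 and 138 and 86.3 with shEVI1-2532. Its NTC level fell between the days and the shEVI1-2532 library of day 6 lay just under the NTC library of day 3, so the groups overlapped, but within each day the order was the same (1.19 and 0.83, adjusted p = 0.00044 and 0.0014).

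By role, death receptors had 5 of 6 higher with shEVI1-2532 and 4 of 6 with shEVI1-2531, growth arrest 7 and 6 of 9, apoptosis 6 and 6 of 8, metabolism 4 and 4 of 6, feedback 3 and 3 of 5, ligands 1 and 2 of 2, and DNA repair 2 and 1 of 6. DNA repair thus had the lowest median with either shRNA, 0.33 and 0.19. GADD45A was called with both (0.72 with shEVI1-2531 and 0.88 with shEVI1-2532) and DDB2 with shEVI1-2532 (0.45). XPC, RRM2B, POLH and ASCC3 were called with neither. LIF had 1 and 5 reads with NTC, 11 and 37 with shEVI1-2531 and 6 and 14 with shEVI1-2532 on day 3 and day 6, so its fold changes (3.18 ± 0.72 (SE) and 2.22 ± 0.77 (SE)) are loose. At day 6 the ratio over NTC was 7.95-fold with shEVI1-2531, with a 95% counting interval of 1.64 to 4.34 on the log2 scale.

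Called in the other direction were DRAM1, a lysosomal protein of p53-driven autophagy, with shEVI1-2531 and the TNF receptor adaptor TRAF4 with shEVI1-2532. DRAM1 was at 28.1 and 25.8 CPM with NTC, 20.1 and 17.0 with shEVI1-2531 and 45.9 and 32.4 with shEVI1-2532 (-0.54, adjusted p = 0.04, and 0.52, adjusted p = 0.025). TRAF4 was at 34.0 and 33.6 CPM, 42.7 and 34.5 and 25.7 and 22.2 (0.18, adjusted p = 0.47, and -0.50, adjusted p = 0.024). The 2 shRNAs thus moved DRAM1 to opposite sides of NTC, and TRAF4 fell with the one that left less EVI1.

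The shRNAs were compared with each other by the test of their difference. Of the 42 targets 8 were higher and 4 lower with shEVI1-2532 than with shEVI1-2531 (12.2% and 12% of all genes tested). Those higher with shEVI1-2532 were TNFRSF10C (2.35 ± 0.25 (SE), adjusted p = 7.1e-05), ZMAT3 (1.32), DRAM1 (1.06), TP53INP1 (1.03), BTG2 (0.74), FAS (0.74), CYFIP2 (0.72) and APAF1 (0.62). Those lower were AEN (-1.20 ± 0.13 (SE), adjusted p = 0.00011), TRAF4 (-0.68), NINJ1 (-0.66) and PRKAB1 (-0.49). The share of targets that differed was near that of all genes, and the split became 5 higher and 5 lower when libraries were scaled to their totals. Left without either shRNA's day 3 library, 7 targets differed. FAS was at 18.4 and 6.997 CPM with NTC, 18.3 and 16.5 with shEVI1-2531 and 39.9 and 22.1 with shEVI1-2532, so on day 3 it was at the NTC level with shEVI1-2531. AEN stood at 47.4 and 47.8 CPM, 89.0 and 85.4 and 38.6 and 37.6, above NTC with one shRNA and below it with the other. NINJ1 was at 46.4 and 53.8 CPM, 120.5 and 131 and 63.3 and 99.4 (1.33 with shEVI1-2531, adjusted p = 0.00014), and its 4 knockdown libraries were above NTC. BTG2 was at 38.3 and 40.6 CPM, 79.1 and 120.1 and 184 and 145, again higher in all 4.

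**Figure D4:**
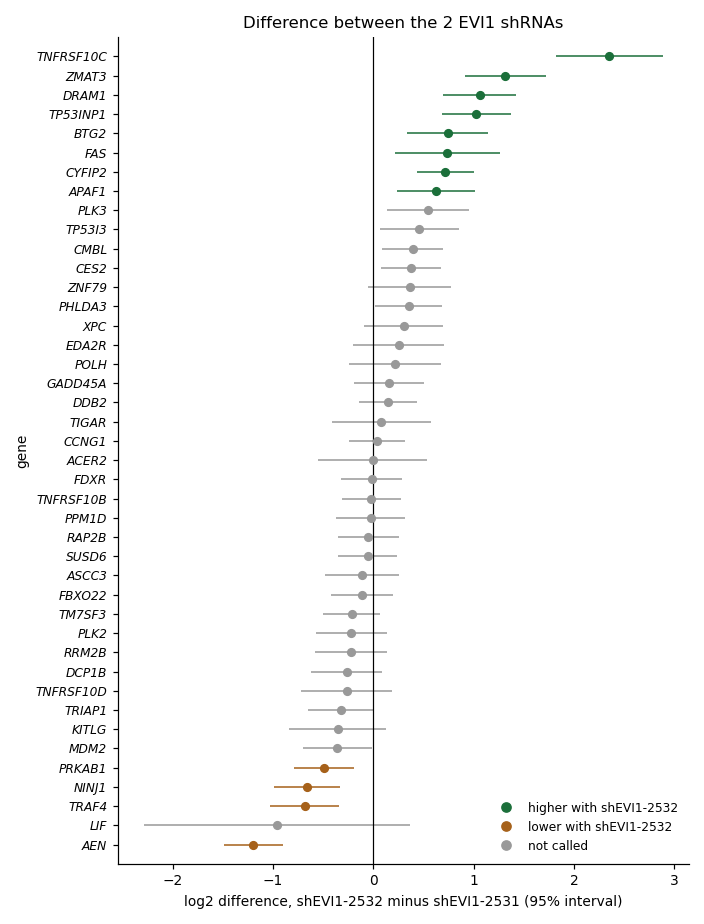
Log2 difference between the shRNAs (x axis, shEVI1-2532 minus shEVI1-2531, with 95% interval) for the 42 tested p53 targets (y axis), colored by call. The 8 genes called higher run from 0.62 (APAF1) to 2.35 (TNFRSF10C) and the 4 called lower from -1.20 (AEN) to -0.49 (PRKAB1).

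The inhibitor and knockdown experiments share no library, and most targets called in one were called in the other. Of the 24 targets higher with the inhibitors, 21 were higher with shEVI1-2532, 19 with shEVI1-2531 and 19 with both. Seen from the knockdown, these were 21 of the 28 targets higher with shEVI1-2532 and 19 of the 26 higher with shEVI1-2531. Over all genes tested 21.2% were higher with shEVI1-2532 and 9.49% with shEVI1-2531. How many of all genes called with the inhibitors were also called with an shRNA was not counted. The overlap, also by timing class below, is therefore not read as particular to p53 targets. PLK3, RRM2B and XPC were called with the inhibitors and with neither shRNA. APAF1, NINJ1, RAP2B and TM7SF3 were called with both shRNAs and not with the inhibitors. Of the early targets 18 of 22 were higher with shEVI1-2532 and 16 with shEVI1-2531, of the 24 h group 6 of 7 with each, and of the 13 not induced 4 with each. None of the 24 was lower with an shRNA, and 7 targets (ASCC3, CCNG1, CMBL, DCP1B, FBXO22, POLH and TRIAP1) were called in none of these 3 tests.

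**Figure D5:**
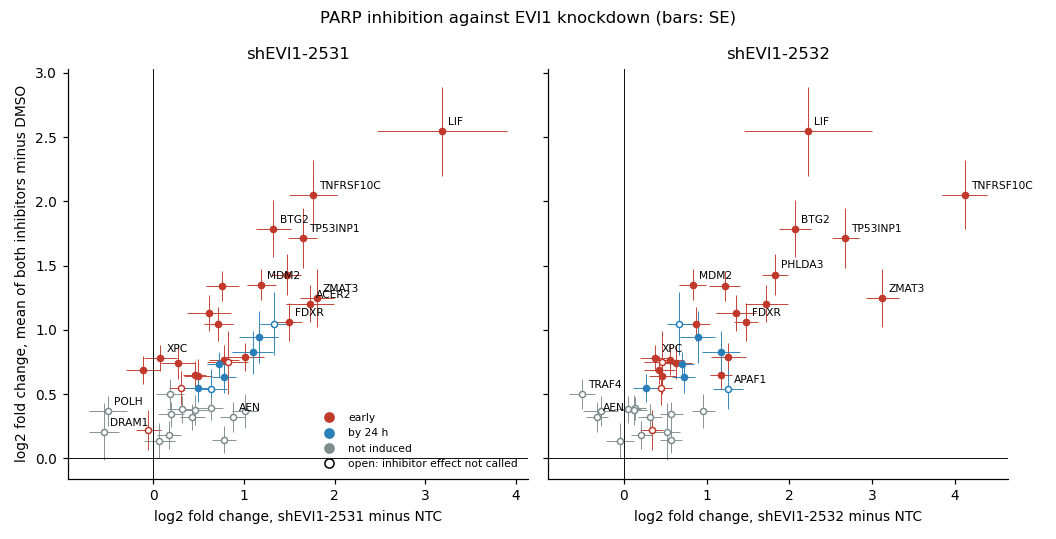
Mean log2 fold change of both inhibitors over DMSO (y axis) against the log2 fold change of each shRNA over NTC (x axis) for 42 p53 targets, with SE bars, colors by timing class and open symbols where the inhibitor effect was not called. All points lie above 0 on the y axis and 38 lie right of 0 in each panel; TNFRSF10C, TP53INP1, BTG2 and LIF are far out on both axes.

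Other genes of the pathway were read from a list of 7 further p53 targets and one of 16 regulators of p53. Both lists were chosen with earlier results of these data known, so their counts are a description and not independent support. Of the 7 targets 6 were higher with the inhibitors and 0 lower: GDF15, a stress cytokine (log2 fold change 4.15), the CDK inhibitor CDKN1A (1.88), SESN2, BBC3, SESN1 and BAX, while PMAIP1 was not called (0.28). Over all 17218 genes tested 3.16% were called higher and 163 genes lower. With each shRNA 5 of the 7 were higher, where 21.2% of all genes were with shEVI1-2532 and 9.49% with shEVI1-2531. PMAIP1 was lower with shEVI1-2532 (-0.58, adjusted p = 0.019). Of the 16 regulators 15 were tested, 1 was higher with the inhibitors and 0 lower, and their median was -0.22. The 1 was HIPK2, a kinase that phosphorylates p53 (0.84, adjusted p = 0.034), and it was also higher with both shRNAs. With shEVI1-2532 3 regulators were higher and 5 lower, and with shEVI1-2531 1 was higher and 2 lower. Over all genes tested 21.2% were called higher and 19.9% lower with shEVI1-2532, and 9.49% and 7.9% with shEVI1-2531. These small counts are therefore not read as particular to the regulators. MDM4, the partner of MDM2 that masks p53, was lower with both (-1.11 with shEVI1-2531 and -0.72 with shEVI1-2532).

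Markers of dividing cells and of monocytes moved in the same libraries. The 12 proliferation genes summed to 2880.3 to 3338 CPM in the DMSO libraries, to 2839.9 and 2614 with olaparib and talazoparib at 12 h, and to 1364 and 540.0 at 48 h. In the mean inhibitor effect 3 of the 12 were called lower, where 163 of all 17218 genes tested were. All 12 were lower with shEVI1-2532 and 6 with shEVI1-2531, where 19.9% and 7.9% of all genes tested were. The 5 monocyte markers CD14, ITGAM, FCGR1A, CD163 and LYZ summed to 266 to 427 CPM with DMSO, 283 and 329 with the inhibitors at 12 h, and 2227 and 4462 at 48 h. They summed to 207 and 240.4 with NTC, 1126 and 1250.5 with shEVI1-2531 and 4814 and 6120.0 with shEVI1-2532. None of these monocyte markers was called higher in the mean inhibitor effect. At 12 h, when 22 p53 targets were 1.5-fold higher with both drugs, the monocyte sums were above DMSO of that hour (266 CPM). They were within the range of the DMSO libraries over all hours. The proliferation sums were below that range and below DMSO at 12 h (3050 CPM). The untreated library had 378 CPM for the monocyte markers and 2616 for the proliferation genes. At 24 h the monocyte sums were 684 with olaparib and 1214 with talazoparib and the proliferation sums 2237 and 1549, outside the DMSO ranges. From 24 h and in the knockdown libraries both lists moved together with the targets, and their part in the result was not tested. EVI1 mRNA was at 48.8, 49.0 and 61.8 CPM with DMSO at 12, 24 and 48 h, 44.6, 38.7 and 23.3 with olaparib and 45.0, 30.9 and 9.98 with talazoparib, so the inhibitor libraries fell below DMSO with time (slope -0.94 per doubling, adjusted p = 7.4e-11), and the part of this in the result was not tested either.

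Of 5 bladder epithelium markers, included because 5637 medium was used, KRT5, EPCAM, CDH1 and UPK1B had few reads in any library and only KRT17 passed the filter. The 5 summed to 110 to 143 CPM with DMSO, to 162 to 1007 with the inhibitors, to 226 and 303 with NTC and to 647 to 1126 with the shRNAs. KRT17 was called higher with the inhibitors and with both shRNAs (1.59, 1.55 with shEVI1-2531 and 1.956 with shEVI1-2532). The 4 T cell markers summed to 3.61 to 15.8 CPM and the 4 B cell markers to 9.80 to 17.3 CPM over the 16 libraries. None of the T or B cell markers tested was called with the inhibitors, while 3 T cell markers were lower and 1 higher with shEVI1-2531, and CD3E was lower with shEVI1-2532.

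The counting leaves some targets uncertain. FAS, POLH, DCP1B, TIGAR, TNFRSF10B, TP53I3 and TP53INP1 overlap a gene on the other strand with at least 100 reads in a library, and the strand setting of the counting is not given in the sources used here, so reads of the pair cannot be told apart.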

How the data were processed

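Per the labels, MUTZ-3 RNA libraries were made with the TruSeq Stranded mRNA kit. The submitters' processing notes name STAR, Picard, featureCounts and hg38/GRCh38, and their versions, roles and the strand setting are not given in the sources used here. The deposited tables hold raw counts per gene, which were used here, and a TPM column that the authors' files carry beside them. That deposited TPM equals counts over the whole gene span rather than the exons, so it was not used. All 44 members and all gene lists were chosen with earlier results of these data known.

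Samples were grouped by title, 1 library per condition, with no replicates, so p-values rest on the spread between time points or days of 1 cell line. In these fits edgeR drew the spread of each gene toward a trend shared by all genes. The gene's own spread had 4 degrees of freedom in the time course and the shared one 4.23. In the knockdown they had 2 and 10.1, so its p-values rest mostly on the shared spread. The files of the libraries labelled shEVI1-2531 carry another shRNA number in their names, and the labels were followed. Counts were tested with edgeR 4.0.16 in R 4.3.3 (quasi-likelihood test, TMM scaling, Benjamini-Hochberg adjustment over all genes tested, threshold 0.05). The time course used 9 libraries (12, 24 and 48 h) with the time point, olaparib and talazoparib in the model, leaving the untreated library out, and kept genes that reached 10 counts in 3 or more of them. The effect of time was tested as a slope on log2 hours, a fit with 2 residual degrees of freedom in which edgeR shared 1 trended spread across all genes. The knockdown used 6 libraries with day and 3 shRNA groups, and kept genes that reached 10 counts in 2 or more. Intervals of single ratios are 95% and cover counting error only. Timing classes used a threshold of 1.5-fold in both drugs. The fits were also run on simulated data with large changes in well-counted genes and a smaller spread than in these data. That run therefore says little about how reliable the calls given here are. Alternatives were total-count and upper quartile scaling, DESeq2 1.42.0, other filters and thresholds, models without time, and leaving out each time point or library. Values in every library are given for the 12 targets with the smallest p for the inhibitors, the 4 with the smallest p for each shRNA and the genes not past the filter. Further genes with values in every library (KITLG, APAF1, AEN, MDM2 and FAS in the knockdown, NINJ1, BTG2, DRAM1 and TRAF4) were chosen after their values were seen. Promoter sequences are from RefSeq (GRCh38.p14). A few listed genes that are no members are not reported here and were left out of the list sums and counts.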

Additional observations from a re-analysis of the deposited data

Results flagged for a closer look

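The test of the difference between the shRNAs called 12 of the 42 p53 targets (log2 difference, shEVI1-2532 minus shEVI1-2531), 8 higher and 4 lower, where 12.2% and 12% of all genes were called. This share is near that of all genes. The values were 2.35 for TNFRSF10C, 1.32 for ZMAT3, 1.06 for DRAM1, 1.03 for TP53INP1, 0.74 for BTG2, 0.74 for FAS, 0.72 for CYFIP2 and 0.62 for APAF1. Lower with shEVI1-2532 were AEN at -1.20, TRAF4 at -0.68, NINJ1 at -0.66 and PRKAB1 at -0.49. EVI1 itself was at 5.14 and 4.31 CPM with shEVI1-2532 and 13.2 and 17.5 CPM with shEVI1-2531 on day 3 and day 6, and the part of EVI1 level in these differences was not tested.

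The test of the slope on log2 hours called 10 of the 42 p53 targets, 7 growing and 3 shrinking, where 9.98% and 9.83% of all genes were called, again a share near that of all genes. The change per doubling of time was 0.70 for NINJ1, 0.67 for ZMAT3, 0.66 for TP53INP1, 0.62 for BTG2, 0.55 for TNFRSF10D, 0.43 for TIGAR and 0.41 for APAF1. It was -0.54 for KITLG, -0.49 for DRAM1 and -0.36 for CMBL. APAF1, BTG2, DRAM1, NINJ1, TP53INP1 and ZMAT3 were in both lists.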

How the results depend on the processing

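The counts of targets called with the inhibitors depended on the model. A threshold of 0.01 left 2 for the mean effect, 0 for olaparib and 1 for talazoparib, and a model without the time point left 2, 0 and 1. Scaling to library totals gave 13 for talazoparib, and DESeq2 and no filter gave 26 and 27 for olaparib. Leaving out each time point in turn gave 0 to 31 for the mean effect, 0 to 23 for olaparib, 0 to 29 for talazoparib and 0 in each for their difference, and the 0 came without the 24 h libraries. A model without day gave 14 for shEVI1-2532, 8 for shEVI1-2531 and 3 for their difference. Leaving out each library in turn gave 21 to 29, 20 to 30 and 7 to 13. A fold threshold of 2 gave 10 early targets, a lower one 32 and the mean of the DMSO libraries 28. Total scaling gave 17 targets above all DMSO libraries, where 6.67% of all genes were. The 24 h class went from 7 to 4 with the mean of the DMSO libraries or a lower fold threshold and to 2 at a fold of 2, and the targets not induced from 13 to 7 with either inhibitor, 3 at the lower fold and 26 at a fold of 2. The targets first induced at 48 h went from 0 to 3 or 4. The cause of these changes was not tested. For most of these counts of called targets the share of all genes called under the same setting is not given here. A change in a count is therefore not read as particular to the targets. No paired analysis was possible because the labels give no replicate numbers that link libraries beyond the hour or day, and these are already terms of the models.

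Changes of sign were met in the members below, with an adjusted p above 0.05 before and after. Under total scaling they were CCNG1 (-0.028), ASCC3 (-0.069), TM7SF3 (-0.030) and DRAM1 (-0.016) with talazoparib, CCNG1 (-0.088), RRM2B (-0.027), DCP1B (-0.25), PRKAB1 (-0.17) and TRIAP1 (-0.17) with shEVI1-2532, and XPC (-0.088) and ASCC3 (-0.099) with shEVI1-2531. Leaving out each time point in turn, the talazoparib values ran from -0.12 to 0.37 for CMBL, from -0.000454 to 0.22 for CCNG1, from -0.11 to 0.27 for ASCC3, from -0.059 to 0.17 for TM7SF3 and from -0.17 to 0.54 for DRAM1, which was called higher without 48 h (adjusted p = 0.026). Leaving out each knockdown library in turn, they ran from -0.24 to 0.12 for ASCC3 and from -0.069 to 0.30 for TRIAP1 with shEVI1-2532, and with shEVI1-2531 from -0.25 to 0.036 for PLK3, from -0.17 to 0.33 for XPC, from -0.14 to 0.016 for CMBL and from -0.19 to 0.33 for ASCC3. A lone library left in a group was assumed to vary like the others. LIF and TNFRSF10C are limited by their low counts.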
